A study of Mus musculus with 6 samples.

Results

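The miR-200 family and miR-205 are miRNAs best known from epithelial cells, and they were followed here in the atherosclerotic aorta of mice with and without endothelial Dicer. The members were taken by name from the deposited table of quantitative PCR values, without names that carry an asterisk. All 6 names (mmu-miR-200a, mmu-miR-200b, mmu-miR-429, mmu-miR-200c, mmu-miR-141 and mmu-miR-205, written without the mouse prefix mmu from here on) were present, each with 1 assay, among 596 mouse miRNA assays. The samples were whole aortas from 3 EC-Dicerflox and 3 EC-DicerWT mice, labelled as biological replicates. EC-Dicerflox mice were VE-Cadherin-CreERT2Dicer1flox/flox/Apoe-/- and EC-DicerWT mice were VE-Cadherin-CreERT2Dicer1WT/WT/Apoe-/- littermates. Thus both groups carried the Cre transgene and lacked apolipoprotein E. All were females with a labelled age of 6-8 weeks, which in the paper is the age when the diet began. All received Tamoxifen (2 mg per 20 g body weight) on 5 days, and then a high-fat diet (HFD) with 21% crude fat and 0.15% cholesterol for 12 weeks. The Cre recombinase is driven by the promoter of VE-cadherin, a junction protein of endothelial cells, so the deletion was directed at these cells. Whether other cells of the aortic wall kept their Dicer gene was not measured here. The cards measure small RNAs, and the loss of Dicer mRNA in these 6 samples was therefore not checked here.

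Dicer cuts the hairpin precursor of a miRNA into a duplex, of which usually a single strand, the guide, is kept in the silencing complex. The miR-200 family holds epithelial cells in their differentiated state by repressing ZEB1 and ZEB2, transcription factors that switch off E-cadherin. ZEB1 and ZEB2 in turn repress the miR-200 genes. MiR-205 is abundant in stratified epithelia and shares ZEB1 and ZEB2 as targets, although its sequence is unrelated. Mesenchymal cells such as smooth muscle cells are known for low levels of the family, and miR-200c and miR-141 are known to be induced by oxidative stress in cultured endothelial cells.

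The mature sequences show which members can recognise the same target sites, since targets are chosen mainly through the seed. They are the RefSeq sequences of GRCm38.p6, written 5′ to 3′ with the seed (bases 2 to 8) in capitals. The table gives no arm for these assays. The 3p arm was therefore taken for the miR-200 family and the 5p arm for miR-205, which is what names without an asterisk stand for.
mmu-miR-200b: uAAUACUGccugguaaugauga
mmu-miR-200c: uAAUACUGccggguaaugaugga
mmu-miR-429: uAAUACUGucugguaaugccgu
mmu-miR-200a: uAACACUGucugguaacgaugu
mmu-miR-141: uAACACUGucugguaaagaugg
mmu-miR-205: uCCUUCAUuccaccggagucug
MiR-200b, miR-200c and miR-429 had the same seed, and miR-200a and miR-141 had a second seed that differed from it by a single base (C4U from miR-200a to miR-200b, counted from the 5′ end). Among 1679 mature mouse miRNAs in the RefSeq table, 3 had the first seed and 2 had the second, all of them members of the family. The seed of miR-205 was found in 1 miRNA, miR-205 itself. Over 22 compared positions, seed included, the closest pairs were miR-200a with miR-141 and miR-200b with miR-200c, which each differed at 2. The other pairs within the miR-200 family differed at 4 or 5 positions, whereas miR-205 differed from the others at 15 to 17.

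The genes lie at 3 places, and this grouping crosses the grouping by seed. Mir429, Mir200a and Mir200b lie within 1846 bases on the minus strand of chromosome 4 (chr4:156053905-156055750, GRCm38.p6), inside the lncRNA gene Gm13648. Mir141 and Mir200c lie within 477 bases on the minus strand of chromosome 6 (chr6:124717914-124718390), with 968 bases to Phb2 on the left and 2316 bases to Ptpn6 on the right. Mir205 (chr1:193507463-193507530, minus strand) lies inside its host lncRNA gene Mir205hg. Each miR-200 cluster holds members of both seeds.

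The deposited values are raw cycle thresholds (Ct), the cycle at which the product becomes visible, and an undetected miRNA is entered as 40. Abundant miRNAs have a low Ct. It was assumed that the product doubles in each cycle, so that a Ct lower by 1 is a level higher by 1 on the log2 scale. A level is the mean Ct of 5 control RNAs minus the Ct of the miRNA, on the log2 scale. This reference Ct lay between 19.44 and 20.36 in the 6 samples and differed by 0.16 cycles between the groups (P = 0.7, exact two-sided permutation test). The single control RNAs were less uniform. Their group differences, EC-Dicerflox minus EC-DicerWT, ran from -0.22 (U6) to 0.34 cycles (U87), and the Ct of U87 ran from 21.36 to 23.32. Of the 596 assays, 394 were detected in all samples. The 439 assays detected in 3 or more samples were tested. Each group had 3 mice, and Ct values carry no read depth. Each member had 1 assay per aorta, so variation between mice and variation of the measurement were not separated. The smooth muscle miR-145 and miR-143 had mean Ct values of 14.67 and 16.16 over the 6 samples and the endothelial miR-126-3p of 17.53, and these miRNAs are known as abundant in the arterial wall. The third replicates of both groups stood apart in 22 assays, in which both lay more than 2 cycles outside the other 4 samples, and 0 of the members were among these. Such assays were a small part of the cards, so their absence among 6 members does not show that the members were unaffected.

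All 6 members were detected in each of the 6 aortas, and all stayed below a Ct of 35. MiR-200a, the member with the lowest mean Ct (25.66), ranked 164 of the 394 assays detected in all samples, counted from the highest mean level. MiR-200c (mean Ct 26.00), miR-200b (26.10) and miR-429 (26.22) followed at ranks 170, 173 and 178. These 4 members therefore lay near the middle of the detected miRNAs. MiR-205 (27.74) was at rank 228, and its rank within single aortas ran from 148 in EC-DicerWT replicate 2 to 282 in EC-Dicerflox replicate 1. MiR-141 (30.22) was at rank 318, the lowest of the 6. Ct values of different assays also depend on the efficiency of each assay, so this order describes the assays as they were run. The neighbours miR-200a and miR-200c differed by 0.34 ± 0.93 cycles (SD over 6 samples), miR-200c and miR-200b by 0.11 ± 1.38, and miR-200b and miR-429 by 0.12 ± 1.36. None of these 3 steps exceeded its spread. By contrast, miR-205 had a higher Ct than miR-429 in 6 of 6 samples (1.52 ± 1.39 cycles) and miR-141 a higher Ct than miR-205 in 6 of 6 (2.48 ± 1.35 cycles).

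The comparison of EC-Dicerflox with EC-DicerWT aortas asks whether these miRNAs differ when endothelial cells lack Dicer. No member passed the test. Mean levels were lower in EC-Dicerflox aortas for 5 of the 6 members (miR-200a, miR-429, miR-200c, miR-141 and miR-205) and higher for miR-200b. Over the 439 tested assays, mean levels were lower in 61.7%. The median change was -1.02 over the members and -0.10 over all tested assays. With an adjusted limma P under 0.05, 0 members were called, against 0.0% of all tested assays, and with an unadjusted limma P under 0.05 also 0, against 4.78% in either direction and 3.87% that were lower in EC-Dicerflox aortas. Exact two-sided permutation P values of the 6 members lay between 0.2 and 1.0. The groups overlapped in all 6 members, and they were separated in 9.79% of the tested assays. At that share, 0 of 6 does not set the members apart from other miRNAs. The adjusted limma P was 0.994 for each member. In whole tissue, fewer cells of a type and less RNA per cell cannot be told apart.

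On chromosome 4, miR-429, which shares its seed with miR-200b and miR-200c, had Ct values of 25.50, 28.16 and 27.39 in EC-Dicerflox replicates 1, 2 and 3 and of 25.98, 24.29 and 26.01 in EC-DicerWT replicates 1, 2 and 3. EC-Dicerflox replicate 1 lay within the EC-DicerWT values, and the other EC-Dicerflox aortas had less miR-429 than any EC-DicerWT aorta. The mean level of EC-Dicerflox aortas was -7.13 ± 1.12 (SD, n = 3), against -5.70 ± 0.80 for EC-DicerWT. The change of -1.43 ± 0.71 (SE), or 37.2% of the EC-DicerWT level, was the largest of the 6 members in this fit and had the smallest unadjusted limma P (0.099), with a 95% interval from -3.24 to 0.38.

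MiR-200a, which shares its seed with miR-141, had Ct values of 26.09, 26.37 and 25.90 in EC-Dicerflox and of 25.62, 23.59 and 26.38 in EC-DicerWT replicates 1 to 3. EC-DicerWT replicate 2 lay apart with the highest level, and the other 5 aortas, of both groups, lay within a single cycle of each other. Mean levels were -6.23 ± 0.60 in EC-Dicerflox and -5.47 ± 1.15 in EC-DicerWT aortas (SD, n = 3). The change was -0.76 ± 0.68 (SE), with a 95% interval from -2.48 to 0.95 and an unadjusted limma P of 0.31.

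MiR-200b, which lies next to miR-200a, had the opposite sign and the second widest spread. Its Ct values were 25.05, 26.58 and 26.71 in EC-Dicerflox and 25.87, 23.95 and 28.46 in EC-DicerWT replicates 1 to 3. The highest and the lowest level were both found in EC-DicerWT aortas, in replicates 2 and 3, and the EC-Dicerflox aortas lay between them. Mean levels were -6.22 ± 0.56 in EC-Dicerflox and -6.36 ± 1.89 in EC-DicerWT aortas (SD, n = 3). The change was 0.14 ± 1.01 (SE), with an interval from -2.42 to 2.70. Its sign turned when EC-DicerWT replicate 3 (-0.82) or EC-Dicerflox replicate 1 (-0.17) was left out, in replicates 1 and 2 alone (-0.76), and with a reference of U6 (-0.24) or of U6 with snoRNA135 (-0.03).

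On chromosome 6, miR-141 had Ct values of 30.90, 31.65 and 30.27 in EC-Dicerflox and of 30.64, 28.43 and 29.43 in EC-DicerWT replicates 1 to 3. The mean level of EC-Dicerflox aortas was -11.05 ± 0.9985 (SD, n = 3), against -9.77 ± 1.13 for EC-DicerWT. After subtraction of the reference, EC-DicerWT replicates 2 and 3 were above all EC-Dicerflox aortas, and EC-DicerWT replicate 1 lay among them. The change was -1.28 ± 0.78 (SE), with an interval from -3.26 to 0.70 and an unadjusted limma P of 0.16.

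MiR-200c, transcribed beside miR-141, had Ct values of 25.14, 27.42 and 26.63 in EC-Dicerflox and of 26.79, 24.34 and 25.65 in EC-DicerWT replicates 1 to 3. High and low values occurred in both groups, with the lowest level in EC-Dicerflox replicate 2. Mean levels were -6.51 ± 0.94 in EC-Dicerflox and -5.87 ± 1.21 in EC-DicerWT aortas (SD, n = 3). The change was -0.64 ± 0.79 (SE), with an interval from -2.65 to 1.37 and an unadjusted limma P of 0.46.

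MiR-205 had Ct values of 28.71, 28.82 and 27.93 in EC-Dicerflox and of 27.04, 24.60 and 29.36 in EC-DicerWT replicates 1 to 3. The range of its levels, 4.12 log2 units, was the widest of the 6 members, and EC-DicerWT replicates 2 and 3 lay near its ends. The mean level of EC-Dicerflox aortas was -8.60 ± 0.90 (SD, n = 3), against -7.27 ± 2.03 for EC-DicerWT. The change was -1.33 ± 1.13 (SE), with an interval from -4.19 to 1.54 and an unadjusted limma P of 0.29. Replicates 1 and 2 alone gave a change of -2.80 (limma P of 0.047 unadjusted and 0.81 adjusted).

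**Figure D1:**
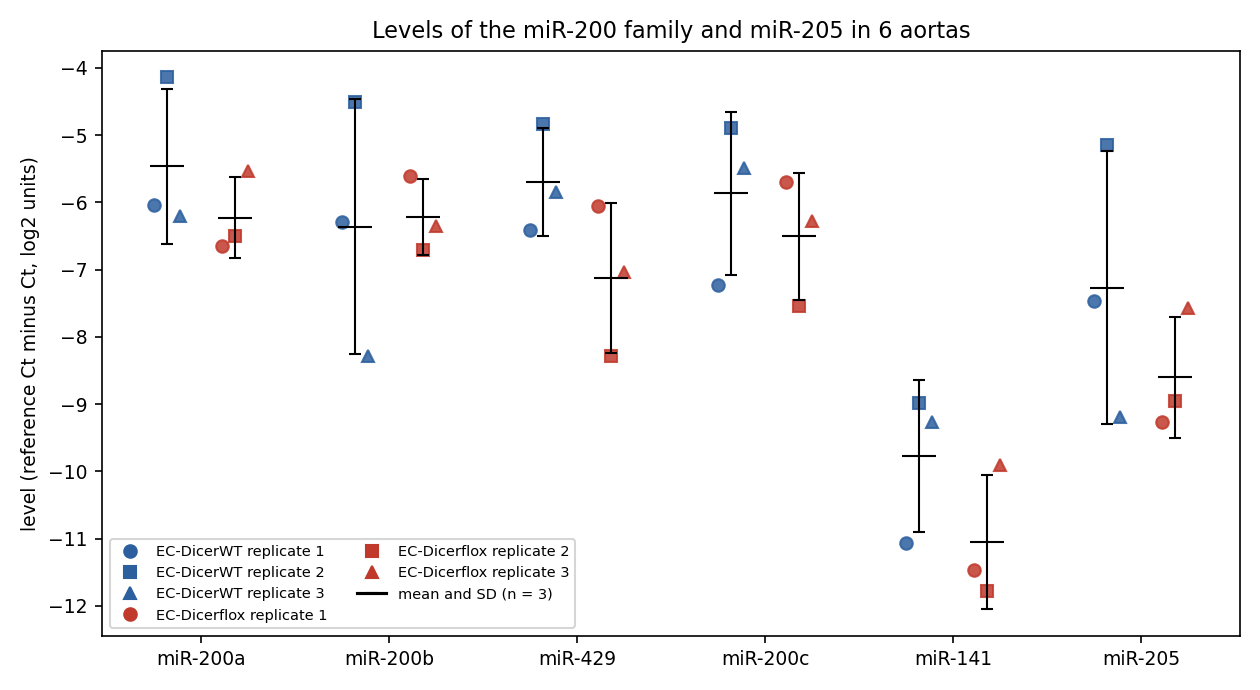
Levels of the 6 members (reference Ct minus Ct, log2 units) in each aorta, EC-DicerWT in blue and EC-Dicerflox in red, with a symbol per replicate number and black bars for the mean and SD of 3 samples. The blue squares of EC-DicerWT replicate 2 are the highest point of all 6 miRNAs, and red and blue points overlap in each.

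The intervals of all 6 members included 0 and also reached changes beyond -2. A lower level in EC-Dicerflox aortas of that size was thus neither shown nor excluded for any of them. The members varied more within the groups, by mouse and measurement together, than most miRNAs. Their pooled within-group SD ranged from 0.92 for miR-200a to 1.57 for miR-205, with a median of 1.08, against a median of 0.53 over all tested assays. A pooled SD over 1 was found in 4 of the 6 members and in 31.2% of the tested assays. Among the 240 tested assays with a mean Ct between 24 and 32, a range chosen to hold the members, the median was 0.56, and between 67.9% (miR-200a) and 82.5% (miR-205) of these assays had a smaller SD than the member.

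**Figure D2:**
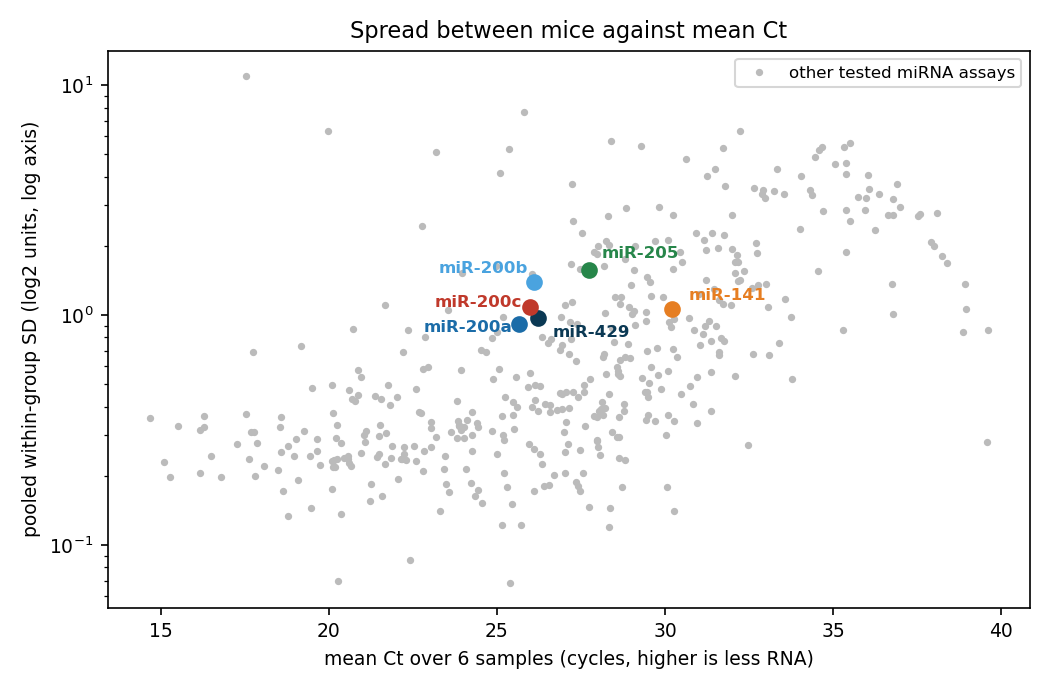
Pooled within-group SD (log2 units, logarithmic axis) against mean Ct (cycles) for 439 tested assays, with the 6 members in colour. The members lie between 0.92 and 1.57, in the upper part of the cloud at their Ct.

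A single aorta held the highest level of every member. In EC-DicerWT replicate 2 the 6 members exceeded the mean of the other 5 samples by 1.55 (miR-200c) to 3.34 (miR-205) log2 units, with a median of 1.97. Among the 439 tested assays, 13.2% had their highest level in this aorta, and the median difference of all tested assays was 0.05. For miR-205, 96.8% of the tested assays had a smaller difference, and for miR-200c 89.3%. The reference Ct of this aorta, 19.45, was close to that of EC-Dicerflox replicate 1 (19.44). In no other aorta did all members deviate in 1 direction, except EC-Dicerflox replicate 2, in which all 6 were below the mean of the others, by 0.50 (miR-200b) to 2.25 (miR-429).

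**Figure D3:**
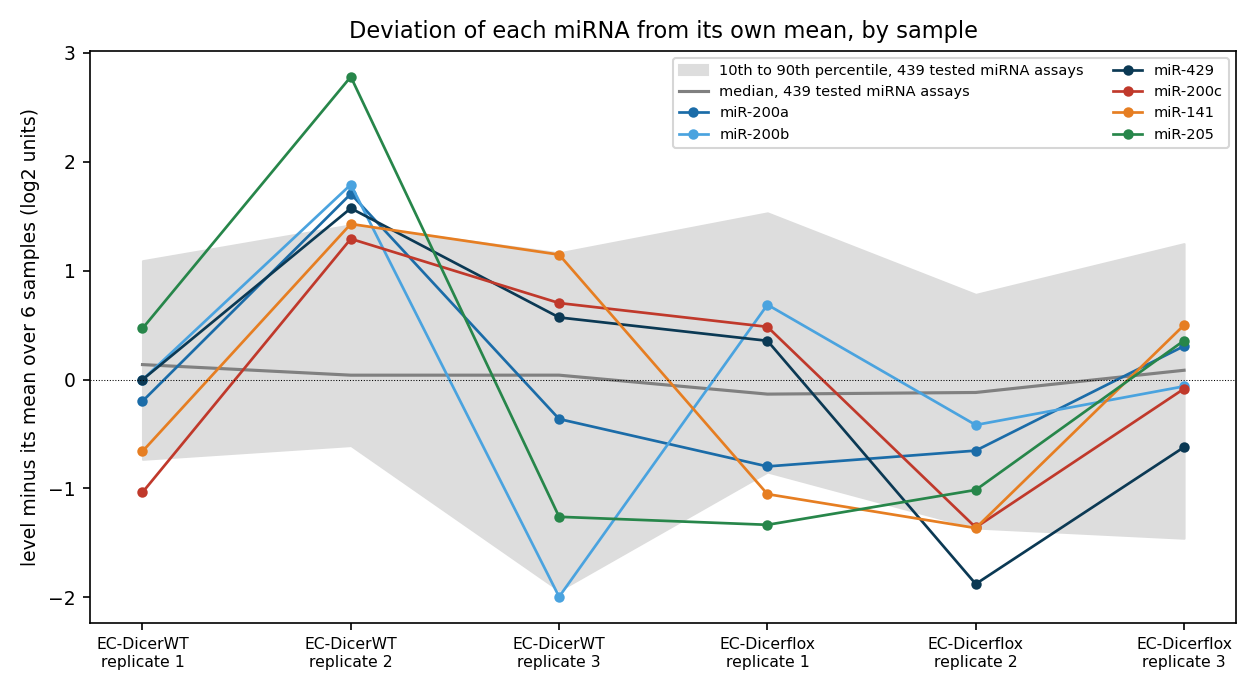
Level of each member minus its own mean over the 6 samples (log2 units), by sample, with the median and the band from the 10th to the 90th percentile of 439 tested assays in grey. Lines join values of the same miRNA; they meet near the top of the band or above it in EC-DicerWT replicate 2, all lie below 0 in EC-Dicerflox replicate 2, and lie on both sides of 0 in the other aortas.

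Without EC-DicerWT replicate 2 the changes of the 5 members with a lower mean came closer to 0, and that of miR-200b went further above it. The change became -0.10 for miR-200a, 1.07 for miR-200b, -0.999 for miR-429, -0.15 for miR-200c, -0.88 for miR-141 and -0.27 for miR-205. The median over the members became -0.21, while that over all tested assays was -0.12. MiR-429 and miR-141 had the most negative values, with unadjusted limma P values of 0.26 and 0.37.

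**Figure D4:**
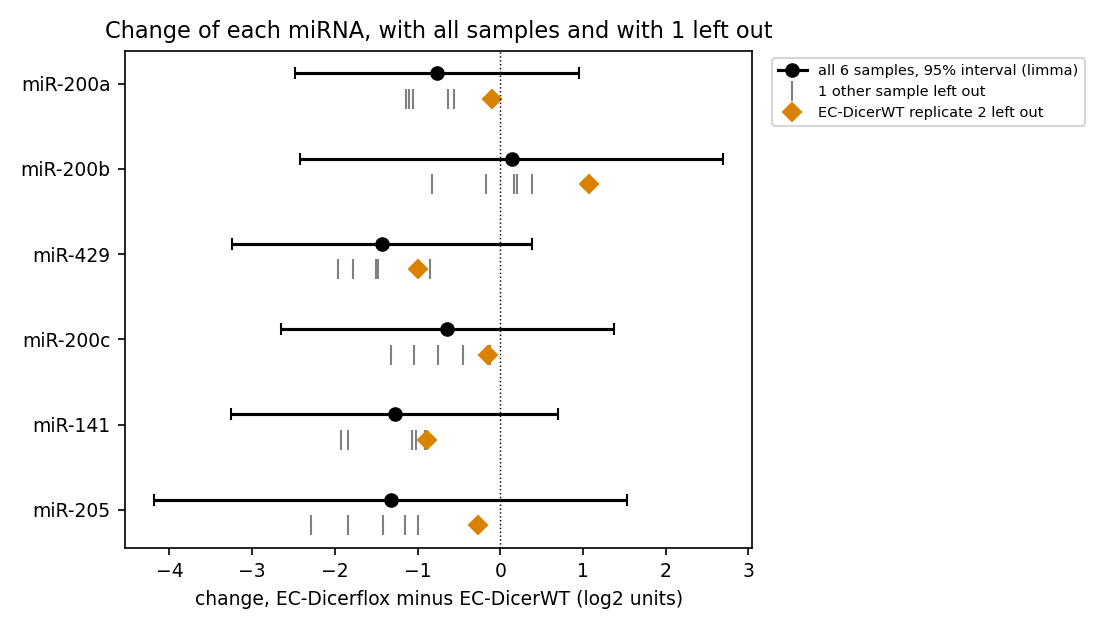
Change of each member (EC-Dicerflox minus EC-DicerWT, log2 units). Black points and bars give the limma estimate and its 95% interval with all 6 samples, grey ticks the estimates with another sample left out, and orange diamonds those without EC-DicerWT replicate 2. All black bars cross 0, and the diamonds are the right-most estimate of miR-200a, miR-200b, miR-141 and miR-205, whereas for miR-429 and miR-200c the estimate without EC-Dicerflox replicate 2 (-0.85 and -0.12) is further right.

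Markers of other cells were compared in the same aorta. All 6 leukocyte miRNAs were detected in all samples, at mean Ct values from 19.49 (miR-150) to 26.88 (miR-142-5p). Of 6 leukocyte miRNAs, 3 also had their highest level in EC-DicerWT replicate 2 (miR-142-3p, miR-142-5p and miR-155, by 0.92, 0.84 and 1.11 above the mean of the others), and the list ranged from -0.20 for miR-146a to 1.11. In contrast, the smooth muscle miR-143 and miR-145 were at -0.16 and -0.44 and the endothelial miR-126-3p and miR-126-5p at -0.35 and -0.28. The erythrocyte miR-451 was at 0.41 and miR-486 at -0.01, and the 4 tested striated muscle miRNAs were between -0.38 and -0.08. Striated muscle miRNAs detected too seldom for the test went both ways. MiR-499 was detected in EC-DicerWT replicate 2 alone (Ct 35.75), and miR-208b in EC-Dicerflox replicates 2 and 3 alone (Ct 35.10 and 33.61). The part of leukocytes or of any other cell type in the high levels of the members was not tested. Between the groups, the mean level of the leukocyte list ranged from -2.89 to -2.40 in EC-Dicerflox and from -2.72 to -2.13 in EC-DicerWT aortas.

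Other miRNAs of epithelia and epithelial organs lay on both sides of 0. In EC-Dicerflox aortas the mean level of 8 of the 15 tested assays was lower and that of 7 was higher, with a median change of -0.03. An adjusted limma P under 0.05 was found for 0 of them and an unadjusted one for 1, miR-184 (-0.66 ± 0.20, SE, unadjusted limma P of 0.020). Over all tested assays these shares were 0.0% and 4.78%, so 1 of 15 does not set the list apart. MiR-203, the miRNA of keratinocytes, had a mean Ct of 22.73, lower than any member, and a change of -0.03 ± 0.32 (SE). MiR-31 had a mean Ct of 20.97 and a change of -0.10 ± 0.25 (SE). Their pooled SDs, 0.38 and 0.25, were smaller than that of any member. Over the 15 tested assays of the list, however, pooled SDs ran from 0.12 (miR-184) to 2.22 (miR-96), on both sides of the members. MiR-183, which is made from the same transcript as miR-182 and miR-96, had a change of -2.14 ± 0.88 (SE, unadjusted limma P of 0.057), whereas miR-182 stood at 0.04 ± 0.60 and miR-96 at -0.83 ± 1.59 (SE). The miRNAs of kidney, gut and liver, miR-192, miR-194 and miR-215, had changes of 0.21 ± 0.26, -0.06 ± 0.21 and 0.01 ± 0.34 (SE). The hepatocyte miR-122 ranged in Ct from 22.35 to 26.70 and had a change of 0.09 ± 1.10 (SE). In the list, 5 of the 15 assays had their highest level in EC-DicerWT replicate 2, against 13.2% of all tested assays. They were miR-449a (2.04 above the mean of the others), miR-183 (1.90), miR-34c (0.77), miR-184 (0.58) and miR-194 (0.30). The median of the list in that aorta was 0.30, and miR-203, miR-31 and miR-192 were below the mean of the others (-0.28, -0.18 and -0.06).

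Neighbours in a cluster were also set against each other within each aorta by their Ct, which does not involve the control RNAs. MiR-141 minus miR-200c was 3.85, 4.09 and 3.78 cycles in EC-DicerWT replicates 1 to 3 and 5.76, 4.23 and 3.64 cycles in EC-Dicerflox replicates 1 to 3. Its SD was 0.16 in EC-DicerWT (n = 3) and 1.09 in EC-Dicerflox aortas (n = 3), where replicate 1 was apart. The means differed by 0.64 (P = 0.5, exact two-sided permutation test), and by 0.03 without EC-Dicerflox replicate 1. In the EC-DicerWT aortas the Ct values of both miRNAs thus went up and down together, including the high level of replicate 2.

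On chromosome 4 the members of the cluster lay apart in EC-DicerWT replicate 3. MiR-429 minus miR-200b was 0.12, 0.34 and -2.45 cycles in EC-DicerWT and 0.45, 1.58 and 0.68 cycles in EC-Dicerflox replicates 1 to 3. The groups were separated, with means of -0.66 ± 1.55 and 0.90 ± 0.60 (SD, n = 3). The difference of 1.57 had the smallest P that 3 against 3 samples allow (0.1, exact two-sided permutation test, or 0.3 after Benjamini-Hochberg adjustment over the 3 pairs), and it became 0.68 without EC-DicerWT replicate 3. MiR-200a minus miR-200b was -0.25, -0.36 and -2.08 cycles in EC-DicerWT and 1.04, -0.21 and -0.82 cycles in EC-Dicerflox replicates 1 to 3. The means differed by 0.90 (P = 0.4, exact two-sided permutation test), and by 0.31 without EC-DicerWT replicate 3. In both pairs the wide value came with the high Ct of miR-200b in that aorta.

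**Figure D5:**
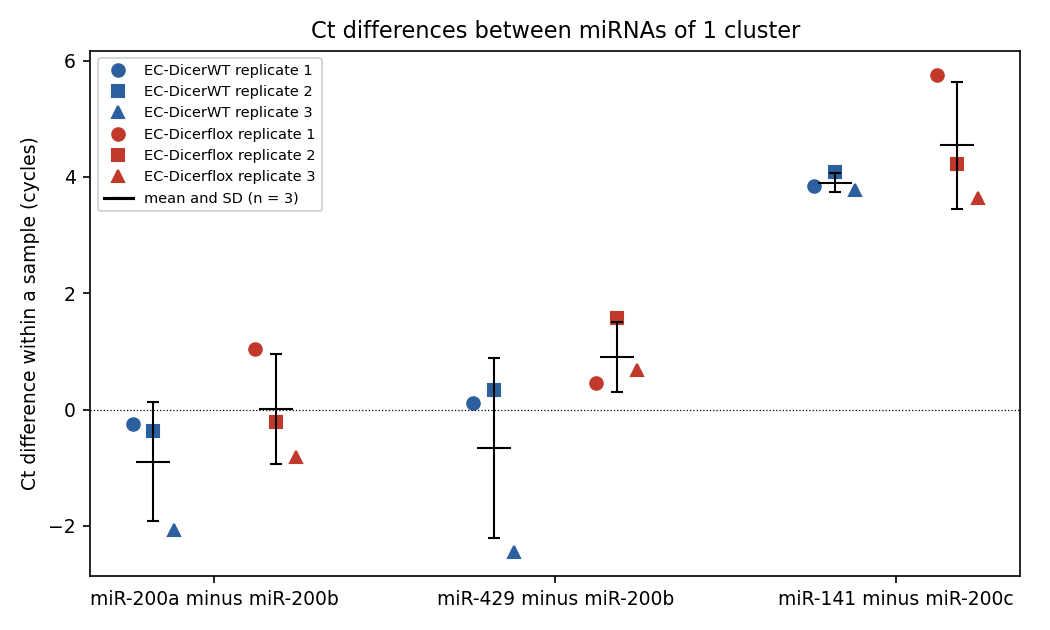
Ct differences (cycles) between miRNAs of 1 cluster in each aorta, EC-DicerWT in blue and EC-Dicerflox in red, with black bars for the mean and SD of 3 samples. MiR-141 minus miR-200c lies between 3.78 and 4.09 in the blue points, and the blue triangle of EC-DicerWT replicate 3 lies below all others in both differences with miR-200b.

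Neither the cluster nor the seed sorted the profiles of the members. Likeness was measured as the root mean square difference between levels centred on their mean over the 6 samples, where 0 means the same profile. The closest pair was miR-429 and miR-200c (0.54), which share a seed but lie on different chromosomes. Of 388 other miRNAs detected in all samples, 0 were closer to miR-429 than miR-200c was. In other pairs this number varied widely. It was 8 for those closer to miR-200c than miR-141 was, and 28 for those closer to miR-200a than miR-205 was. By contrast, 189 were closer to miR-200a than miR-200b was, and 310 were closer to miR-200b than miR-141 was. The next closest pairs were miR-200a and miR-205 (0.69), which share neither, and miR-200c and miR-141 (0.71) from 1 cluster. The farthest pair was miR-200b and miR-141 (1.56). The median was 0.90 for the 4 pairs within a cluster and 1.03 for the other 11, and 0.98 for the 4 pairs with the same seed and 0.92 for the other 11. These values describe 6 samples that share the reference, and no test was made.

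Among other miRNAs, those with the profiles most like the members were listed, 5 for each member. MiR-200a was closest to miR-128a, with a difference of 0.19, and miR-34a followed with 0.34. MiR-128a had Ct values of 26.93, 27.09 and 27.15 in EC-Dicerflox and of 26.71, 24.68 and 27.17 in EC-DicerWT replicates 1 to 3, with EC-DicerWT replicate 2 apart from the others as for miR-200a. MiR-130b*, miR-199a-5p and miR-181a completed the list of miR-200a. In EC-DicerWT replicate 2 the levels of miR-34a and these 3 were 1.27 (miR-181a) to 2.11 (miR-130b*) above the mean of the others, a likeness that the choice of the nearest profiles fixes. MiR-205 was closest to miR-363 (0.74), followed by miR-130b*, miR-128a, miR-34a and miR-199a-5p. MiR-592 was closest to both miR-429 (0.61) and miR-200c (0.55), and miR-466b-3-3p was second for both. MiR-141 was closest to miR-18a (0.63) and miR-200b to miR-1949 (0.70). The lists of miR-200c and miR-141 further held miR-466a-3p, that of miR-200c miR-1928 and miR-1193, and that of miR-429 miR-323-3p, miR-412 and let-7g*. That of miR-200b held miR-467b (the assay on card A), miR-135a, miR-344 and miR-615-3p. MiR-467b also had an assay on card B with another profile. In EC-DicerWT replicate 2 the card A assay was at 0.89 and the card B assay at -0.87, relative to their means over the 6 samples. None of the listed miRNAs had an adjusted limma P under 0.05, and neither did any other tested assay. The smallest unadjusted limma P among the listed miRNAs was 0.022, for miR-412 (-2.72 ± 0.85, SE). Over all tested assays, 4.78% had an unadjusted limma P under 0.05.

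A passenger strand was measured for miR-141 alone among the hairpins of the members. MiR-141* corresponds to the 5p arm (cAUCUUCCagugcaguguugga, seed in capitals, chr6:124717959-124717980, GRCm38.p6), which leaves the same hairpin by the same Dicer cut as miR-141. It was detected in 3 of the 6 aortas, at Ct values of 38.12 and 39.89 in EC-Dicerflox replicates 2 and 3 and of 39.64 in EC-DicerWT replicate 1. These values lie close to the limit, and where it was undetected the level of miR-141* is only bounded by that limit. It was undetected in EC-DicerWT replicate 2, in which miR-141 had its lowest Ct.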

How the data were processed

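Total RNA from the aortas was isolated with the mirVana kit. After reverse transcription and preamplification with Megaplex rodent pools, the authors loaded TaqMan Array MicroRNA Cards. They deposited raw Ct values, a score with no normalization. Baseline and threshold settings are not given in the sources used here. The table held 596 mouse miRNA assays (335 of card A, 261 of card B, told apart by the length of the assay number), 10 assays of 5 control RNAs (snoRNA135, snoRNA202, U6, U87 and Y1) and 2 of a plant miRNA. All members were on card A.

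Levels were tested two-sided with limma 3.58.1 under R 4.3.3 (lmFit, eBayes), without a replicate block. Benjamini-Hochberg adjustment covered the 439 assays with a Ct under 40 in at least 3 of the 6 samples, and undetected wells stayed at 40. P values were called at 0.05. Single values were compared by exact permutation tests over 20 assignments (scipy 1.17.1), for which 0.1 is the smallest P. The fit was tested on simulated data. Alternatives covered the reference, the detection filter and limit, the variance model, a replicate block, the third replicates as a batch, their removal, and each sample left out.

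The members, the lists and the third-replicate settings were chosen with earlier results of these data known. Named were the members, their passenger strands, the lists, the control RNAs and the 5 miRNAs nearest to each member. Replicates 1 and 2 alone for the Ct differences and the median over the members in each setting were added after the values were seen. No assay named miR-144 or miR-206 was used here. MiR-449b had 2 assays, of which that on card A was undetected in all samples. RefSeq names and coordinates refer to GRCm38.p6.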

Additional observations from a re-analysis of the deposited data

Results flagged for a closer look

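In EC-Dicerflox replicate 1 the plant miRNA on card A, a sequence foreign to mice, gave a Ct of 39.776. It enters no comparison and is listed because a signal appeared where none should, and it was undetected in the other 5 samples and on card B. All Ct values of the 6 members were below 32, and those of miR-141* in EC-Dicerflox replicate 3 and EC-DicerWT replicate 1 (39.89 and 39.64) lay around this value.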

How the results depend on the processing

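The direction of miR-200a, miR-429, miR-200c, miR-141 and miR-205 was lower in EC-Dicerflox aortas in all 20 alternative fits, and no member had an adjusted limma P under 0.05 in any of them (lowest 0.79, for miR-141). Many of these fits could not move the direction. The changes of the members stayed the same under another detection filter or limit and with undetected wells missing. They also stayed the same with another variance model, the replicate block or the batch term. MiR-200b became lower with a reference of U6 (-0.2393) or of U6 with snoRNA135 (-0.0262), in replicates 1 and 2 only (-0.7590), without EC-DicerWT replicate 3 (-0.8247) and without EC-Dicerflox replicate 1 (-0.1707). The members with an unadjusted limma P under 0.05 numbered 1 with U6 alone (miR-141, 0.037, against 2.51% of all tested assays), 1 in replicates 1 and 2 only (miR-205, 0.047, against 3.87%), 1 without EC-DicerWT replicate 1 (miR-141, 0.043, against 2.96%) and 1 without EC-Dicerflox replicate 1 (miR-429, 0.041, against 3.19%), and 0 to 1 over the fits that left out 1 sample. In those fits the changes ranged from -1.13 to -0.10 for miR-200a, -0.82 to 1.07 for miR-200b, -1.96 to -0.85 for miR-429, -1.32 to -0.12 for miR-200c, -1.93 to -0.88 for miR-141 and -2.29 to -0.27 for miR-205. The reference Ct difference was -0.2167 for U6 and -0.0035 for the mean of U6 and snoRNA135, and ranged from -0.0724 (without EC-Dicerflox replicate 3) to 0.39 when 1 sample was left out. U6 alone moved the median change of all tested assays to -0.48 and that of the members to -1.40. In each case the cause was not tested.

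With the replicate block the changes were the same and the adjusted limma P values of the members lay between 0.87 (miR-429, 0.8683) and 0.99 (miR-200b, 0.9949), so it changed no call. Over all tested assays 17 had an unadjusted P under 0.05 with the block and 21 without it. Deviations from the group means correlated across assays by 0.15, -0.06 and 0.31 for replicates 1, 2 and 3, most for the third replicates. The main fit treated replicate numbers as names only. What the third replicates of both groups may share was not tested.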
